A study of Homo sapiens with 24 samples.

Results

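The transient receptor potential (TRP) channel genes of sensory neurons were followed in cultures of hPSC-derived sensory neurons exposed to cytokines. The 9 genes were chosen by symbol as channels for heat, cold, irritants and osmotic stretch, and they were 9 of 36468 entries in the count table: TRPV1, TRPV2, TRPV4, TRPA1, TRPM8, TRPM2, TRPM3, TRPC1 and TRPC5. Each had 1 entry. The cultures came from H9WAO9, a human embryonic stem cell line of wild-type genotype, taken through vagal neural crest spheroids to sensory neurons and then matured. In each of 6 batches of differentiation, 1 culture received vehicle (0.1% BSA in PBS), 1 received TGF-β (2 ng/ml), 1 received IL-4 (10 ng/ml) with IL-13 (3 ng/ml), and 1 received IL-6, which gave 24 poly-A RNA libraries. TGF-β, IL-4+IL-13 and vehicle were given for 5 days, and the dose and duration of IL-6 are not given in the sources used here. All batches share 1 cell line, so the spread below is between differentiations and not between donors.

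TRP channels are tetrameric cation channels that let calcium and sodium in when opened by temperature, chemicals, lipids or mechanical stress. In peripheral sensory neurons, TRPV1 is the receptor for capsaicin and noxious heat, TRPA1 detects irritants such as mustard oil, TRPM8 is the receptor for cold and menthol, and TRPM3 responds to heat and to the steroid pregnenolone sulfate. TRPV4 responds to osmotic swelling and warmth, and it is found in many epithelia as well as in neurons.

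Libraries held 33342682 to 39817784 counts (median 35775126). Pan-neuronal markers such as TUBB3 and UCHL1 were counted in every library, and among 15 markers of sensory neurons SCN10A and CALCA were near or at 0 in some, with medians of 6 and 15.5 counts. Markers of mesenchymal cells (COL1A1, 25627 to 272161 counts) and of pigment cells (TYR, 468 to 7754 counts) were present too, so the libraries were of mixed cultures. In such bulk samples fewer cells of a type and less RNA per cell cannot be told apart. The vehicle library of batch 2 stood apart from the other 3 of its batch. Its deviation from its treatment mean over 20962 genes correlated at 0.04 with those of its own batch and at 0.43 with those of batch 4. Some tested differences that rest on it are therefore given with and without it, whereas others and all correlations are given only with it. In batch 4 the vehicle library correlated at 0.15 with its own batch and at 0.40 with batch 2, the TGF-β library at 0.39 with its own and 0.56 with batch 3, and the IL-4+IL-13 library at 0.31 with its own and 0.52 with batch 3. Whether any of these libraries were exchanged was not tested.

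The proximal promoters of 3 members are shown because these members mark the range of behavior found: TRPM3 was the most abundant and the member that passed the test under TGF-β, TRPC1 was among the steadiest, and TRPM8 had the largest share of its variance between batches. Each is the 250 bases before the outermost start that RefSeq lists for the gene on GRCh38.p14, printed 5′ to 3′ on the gene's own strand. Of 9 members, 5 had an entry in the promoter table. Capitals mark CAGAC, the core of a SMAD-binding element, or its reverse complement GTCTG, and TATAAA, the core of a TATA box, all searched on both strands with no overlap between them.
TRPM3, chr9:71446972-71447221, minus strand: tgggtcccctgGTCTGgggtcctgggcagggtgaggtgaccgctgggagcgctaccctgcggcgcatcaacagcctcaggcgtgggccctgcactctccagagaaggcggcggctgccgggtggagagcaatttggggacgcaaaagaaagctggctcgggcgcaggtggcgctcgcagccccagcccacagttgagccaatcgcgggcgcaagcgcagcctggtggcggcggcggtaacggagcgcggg
TRPC1, chr3:142723784-142724033, plus strand: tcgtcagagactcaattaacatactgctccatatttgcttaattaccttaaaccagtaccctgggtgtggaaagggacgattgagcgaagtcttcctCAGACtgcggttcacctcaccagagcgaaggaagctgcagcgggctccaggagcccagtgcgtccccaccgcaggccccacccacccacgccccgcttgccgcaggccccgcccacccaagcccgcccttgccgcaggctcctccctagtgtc
TRPM8, chr2:233917123-233917372, plus strand: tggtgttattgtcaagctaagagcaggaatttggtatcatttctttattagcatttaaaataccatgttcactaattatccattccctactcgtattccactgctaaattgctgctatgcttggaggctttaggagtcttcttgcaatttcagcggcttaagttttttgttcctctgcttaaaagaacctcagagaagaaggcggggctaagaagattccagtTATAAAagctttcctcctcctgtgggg
The windows of TRPM3 and TRPC1 each held 1 CAGAC match, the former on the opposite strand and starting 239 bases before the start, and that of TRPM8 held none. CAGAC was present in 38.0% of 35116 such windows, so its presence does not set these genes apart. TRPM8 had TATAAA starting 27 bases before its start, a match that 10.7% of windows held somewhere. The TRPM3 window had 23 CG dinucleotides and the TRPM8 window 3, against a median of 11 over all windows.

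In vehicle cultures the 9 genes spanned a wide range, with TRPM3 at the top and TRPA1 and TRPM2 at the bottom. Raw counts of TRPM3 over the 6 vehicle libraries were between 2495 and 11788 (median 4160.5), and its level, given throughout as log2(normalized counts + 1), was 12.27 ± 0.93 (SD, n = 6 batches). TRPC1, a widely expressed subunit of receptor-operated and store-operated channels, had 638 to 927 counts (median 806) and a level of 9.60 ± 0.13. TRPV1 had 349 to 498 counts (median 409.5) and a level of 8.67 ± 0.12. These last genes barely moved between vehicle libraries, whereas the abundant TRPM3 did.

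The remaining members varied widely between vehicle libraries. TRPV2, a channel of large sensory neurons and of other cells, had 94 to 848 counts (median 361.5) and a level of 8.20 ± 1.36 (SD, n = 6). TRPC5, a neuronal channel also linked to cold sensing, had 53 to 625 counts (median 359) and a level of 8.08 ± 1.24. TRPV4 had 110 to 1453 counts (median 200) and a level of 8.0 ± 1.5. Only TRPV4 in this group had its highest count in batch 1, where TRPC5 and TRPV2 had their lowest.

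TRPM8 had 19 to 248 vehicle counts (median 125.5; level 6.33 ± 1.59, SD, n = 6). TRPM2, a channel opened by oxidative stress and warmth, had 14 to 72 (median 31; level 5.10 ± 0.91). TRPA1 had 12 to 68 (median 20.5; level 4.61 ± 0.89). No member was at the detection limit, set at a median of 10 raw counts over the 24 libraries, and none was at 0 in any library. TRPA1 (median 20) and TRPM2 (median 28.5) came closest: TRPM2 fell under 10 counts in 3 libraries, and TRPA1 never exceeded 68.

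Levels of different genes are compared only per length, as normalized counts per kb of the MANE transcript of GENCODE release 44. In vehicle cultures TRPM3 reached 479 ± 318 per kb (SD, n = 6), TRPC1 170 ± 15 and TRPV2 146 ± 116. TRPV4 reached 132 ± 166 per kb, TRPV1 97.6 ± 8.13 and TRPC5 28 ± 16.6. TRPM8, TRPM2 and TRPA1 closed the order at 21.3 ± 17.4, 7.21 ± 4.31 and 5.43 ± 4.19 per kb. Ranked by the mean log2 of these values, only the top step, TRPM3 above TRPC1, held in 6 of 6 batches (mean log2 difference 1.24 ± 1.01, SD). TRPC5 above TRPM8 and TRPM8 above TRPM2 held in 5 of 6 batches, and TRPC1 above TRPV2 and TRPV1 above TRPV4 in 4 of 6. TRPV2 and TRPV1 changed places in 3 of 6, as did TRPV4 and TRPC5 and also TRPM2 and TRPA1, so these neighbors did not differ beyond their spread. With all exons of a gene together taken as its length, the per-kb value fell most for TRPM3, from 479 to 265.5. Its exons together cover 22241 bases against 12320 in the MANE transcript.

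**Figure D1:**
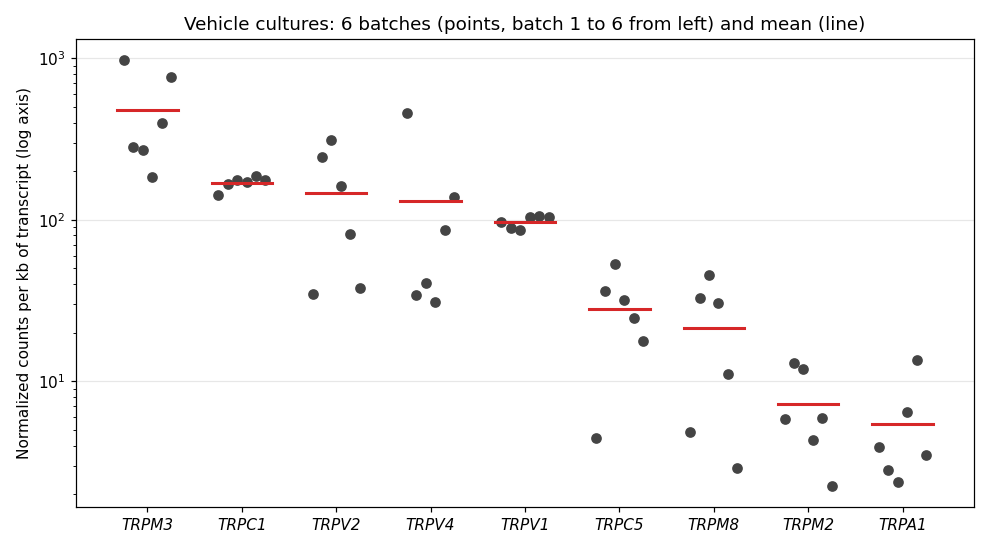
Normalized counts per kb of MANE transcript (log axis) in the 6 vehicle libraries, drawn as points with batch 1 at the left and batch 6 at the right of each gene, and their mean as a line. TRPC1 and TRPV1 sit in narrow bands around 170 and 97.6, while TRPV4, TRPC5 and TRPM8 spread widely between batches.

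The genes lie on 8 chromosomes (GRCh38.p14, RefSeq). TRPM3 occupies chromosome 9 from 70529060 to 71446971 on the minus strand, and TRPV4 occupies chromosome 12 from 109783087 to 109833398 on the minus strand. TRPV1 (3565446 to 3609411, minus) and TRPV2 (16415571 to 16437003, plus) are both on chromosome 17. The exons of TRPV1 share 1519 bases, 27.5% of their length, with a protein-coding locus on the same strand in GENCODE release 44 that has no gene symbol and no entry in the count table. They share 242 bases, 4.38% of their length, with SHPK on the same strand, which has its own entry in the table, and the counting rule for shared bases is not given in the sources used here. Exons of TRPA1 share 981 bases, 15.5% of their length, with the antisense gene MSC-AS1, which has no entry under that symbol. The strandedness of the counting is not given either, so some of the few TRPA1 counts may belong to that gene.

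Batch of differentiation accounted for a larger share of the spread in level than treatment did for 9 of 9 members. With 6 batches and 4 treatments, and no correction for their number, a larger share for batch is partly built in. With edgeR's quasi-likelihood test of the batch terms, 8 of 9 members passed an adjusted p of 0.05, where 56.8% of all 29377 genes tested did. TRPV1 was the exception (edgeR adjusted p = 0.396), and TRPC1 passed narrowly (edgeR adjusted p = 0.0483) and no longer did without batch 1, 3, 4 or 5 (edgeR adjusted p up to 0.616). The call of TRPM2 was lost without batch 3 or 6 (edgeR adjusted p = 0.157 and 0.0930) and that of TRPA1 without batch 5 (edgeR adjusted p = 0.280). Batch accounted for 95.5% of the sum of squares of the TRPM8 level over 24 libraries, 91.6% for TRPV4, 89.8% for TRPC5, 87.1% for TRPV2 and 84.7% for TRPM3. It accounted for 27.7% for TRPV1, the lowest share among the members.

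The members fell into opposed batch patterns. TRPV4 averaged a level of 10.26 ± 0.19 (SD, n = 4 libraries) in batch 1 and 8.67 ± 0.18 in batch 6, against 6.42 ± 0.58 in batch 2. TRPM3 did likewise, with 13.42 ± 0.19 in batch 1, 13.22 ± 0.23 in batch 6 and 11.37 ± 0.58 in batch 4. TRPM8 ran the other way, at 4.17 ± 0.50 in batch 1 and 4.41 ± 0.50 in batch 6 against 7.87 ± 0.41 in batch 4. In raw counts, TRPM8 was between 12 and 33 in all 8 libraries of batches 1 and 6 and between 129 and 370 in all 12 of batches 2 to 4.

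TRPV2 and TRPC5, like TRPM8, were lowest in batch 1 and high in batches 3 and 4. TRPV2 averaged 6.22 ± 0.36 (SD, n = 4) in batch 1 and 9.60 ± 0.27 in batch 3. TRPC5 averaged 5.91 ± 0.49 in batch 1 and 9.02 ± 0.22 in batch 3. Unlike TRPM8, TRPC5 was not lower in batch 6 (7.87 ± 0.09) than in batch 2 (7.71 ± 0.72). In batch 2 the vehicle library alone carried the high values of these genes: TRPV2 had 699 counts there and 127 to 138 in the 3 treated libraries, TRPC5 449 against 135 to 185, and TRPM2 72 against 8 to 12. That library also had the higher summed level of 10 pan-neuronal markers (18.27 against 17.48 to 17.60) and of 11 mesenchymal markers (18.30 against 17.16 to 17.54). Its sum of 6 pluripotency markers was lower (9.55 against 10.86 to 10.97). Single pan-neuronal markers went both ways: NEFL had 95377 counts there against 28558 to 37150. TUBB3 had 30785 against 34328 to 43547, and ELAVL4 3707 against 4444 to 5010. Of the pluripotency markers, DPPA4 had 562 counts against 1708 to 1832, while LIN28A, TDGF1 and L1TD1 were higher in that library. The part of these cell markers in the differences was not tested.

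**Figure D2:**
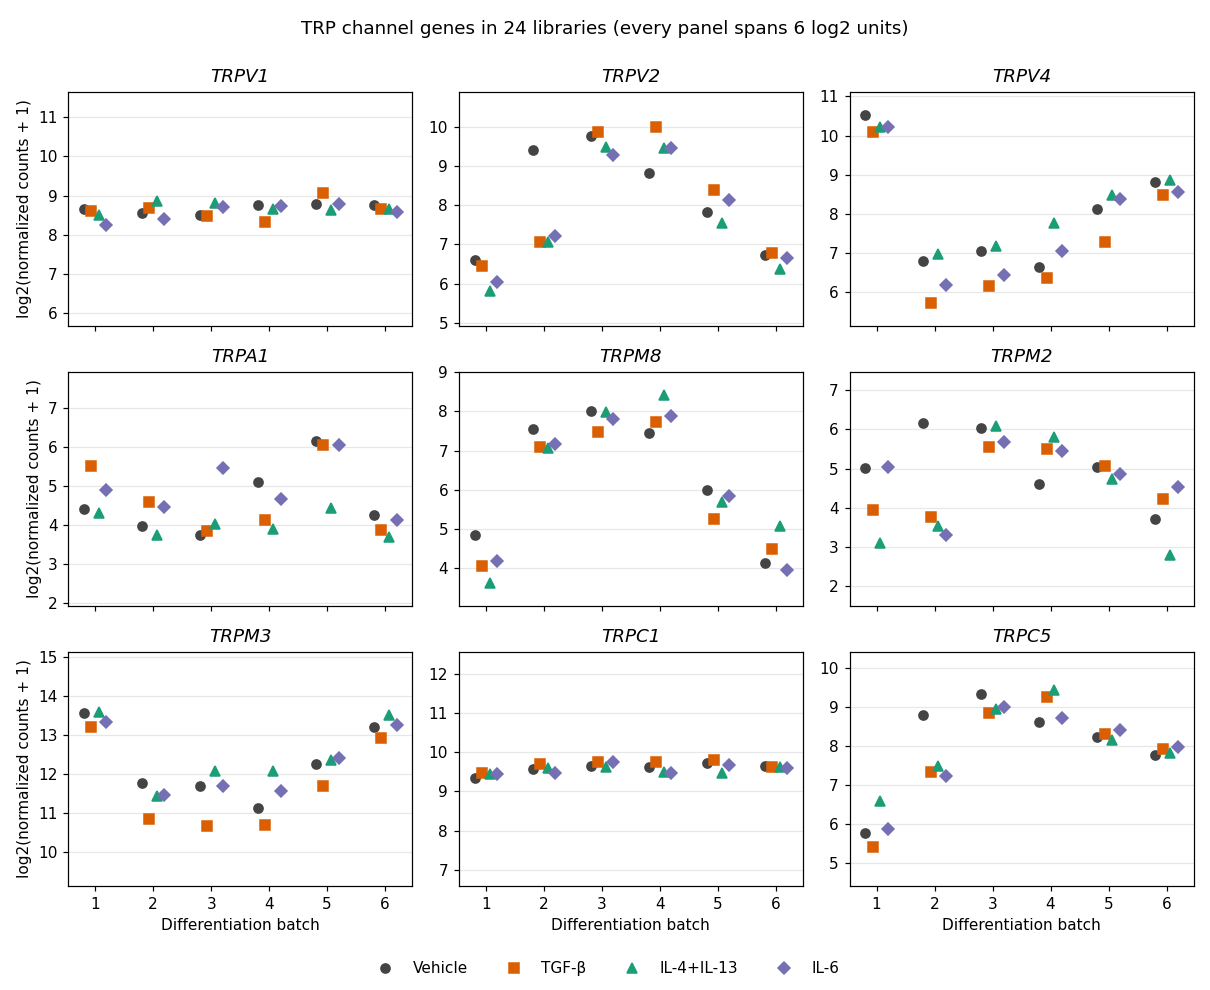
Level, log2(normalized counts + 1), of each gene in the 24 libraries by batch of differentiation, with the treatment given by color and shape; every panel spans 6 log2 units. TRPV1 and TRPC1 are flat across batches, TRPV4 and TRPM3 are high in batches 1 and 6, and TRPV2, TRPM8 and TRPC5 are high in batches 3 and 4.

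Summed levels of neuronal markers moved with these patterns. The pan-neuronal sum averaged 16.18 in batch 1 and 17.13 in batch 6, against 17.73 to 18.54 in the other batches, and none of its 10 genes was at 0 in all libraries. Over the 24 libraries, which share batches, the level of TRPC5 had a Pearson correlation of 0.948 with that sum, TRPV2 0.911 and TRPM8 0.849, whereas TRPV4 had -0.836 and TRPM3 -0.788. TRPV1 had 0.118. As the libraries of a batch share their differentiation, these values describe 6 batches more than 24 cultures.

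TRPM3 and TRPV4 also tracked each other, with r = 0.933 over the 24 libraries and 0.86 once batch means were removed. TRPV2 and TRPM2 had 0.803 and 0.763 on the same scales, and both were high in the batch 2 vehicle library. TRPV2 and TRPM8, by contrast, had 0.856 over all libraries and 0.233 within batches.

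Under TGF-β, TRPM3 was lower than vehicle in 6 of 6 batches. Its raw counts in batches 1 to 6 were 11788, 3566, 3238, 2495, 4755 and 10877 with vehicle, and 8410, 1764, 1695, 1511, 3230 and 7981 with TGF-β. The groups overlapped across batches, since batches 1 and 6 were high with either treatment, and the difference was seen within each batch. The within-batch difference in level was between -1.04 in batch 3 and -0.28 in batch 6. In the edgeR fit of treatment and batch, the log2 fold change was -0.60 (SE 0.13, 95% interval -0.86 to -0.33; edgeR adjusted p = 0.0475). It was the 1 member of 9 that passed an adjusted p of 0.05 in this comparison, where 0.266% of genes passed as lower and 0.347% in either direction. With a fold change beyond 1 on the log2 scale required as well, 0.143% of genes passed and no member did. The adjusted p of TRPM3 lay close to the threshold: without any 1 batch, or without the vehicle library of batch 2, it ran from 0.0590 to 0.309, and with DESeq2 it was 0.00206.

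TRPV4 took the same course. Its counts in batches 1 to 6 were 1453, 113, 128, 110, 272 and 513 with vehicle and 977, 49, 74, 74, 152 and 364 with TGF-β, lower in 6 of 6 batches. Its log2 fold change was -0.63 (SE 0.16, 95% interval -0.98 to -0.29), with an edgeR adjusted p of 0.123, which missed the threshold, and a DESeq2 adjusted p of 0.0272, which passed it.

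The other members gave no call under TGF-β. TRPC1 had a log2 fold change of 0.08 (95% interval -0.04 to 0.21) and TRPV1 one of -0.03 (-0.26 to 0.21), so that a log2 change beyond 0.27 in either direction lay outside the intervals of both. TRPM8 (-0.35, interval -0.80 to 0.09), TRPC5 (-0.28, -0.77 to 0.21) and TRPV2 (-0.21, -0.86 to 0.45) had wider intervals, as did TRPA1 (0.04, -0.59 to 0.67), and that of TRPM2 (-0.60, -1.52 to 0.32) was the widest of the 9. Without the vehicle library of batch 2, TRPV2 had a log2 fold change of 0.27, TRPC5 one of 0.02 and TRPM2 one of -0.05, none of them called. The median over the 9 members was -0.28, against -0.01 over all genes tested, and it was -0.05 without that library and -0.08 without batch 2.

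**Figure D3:**
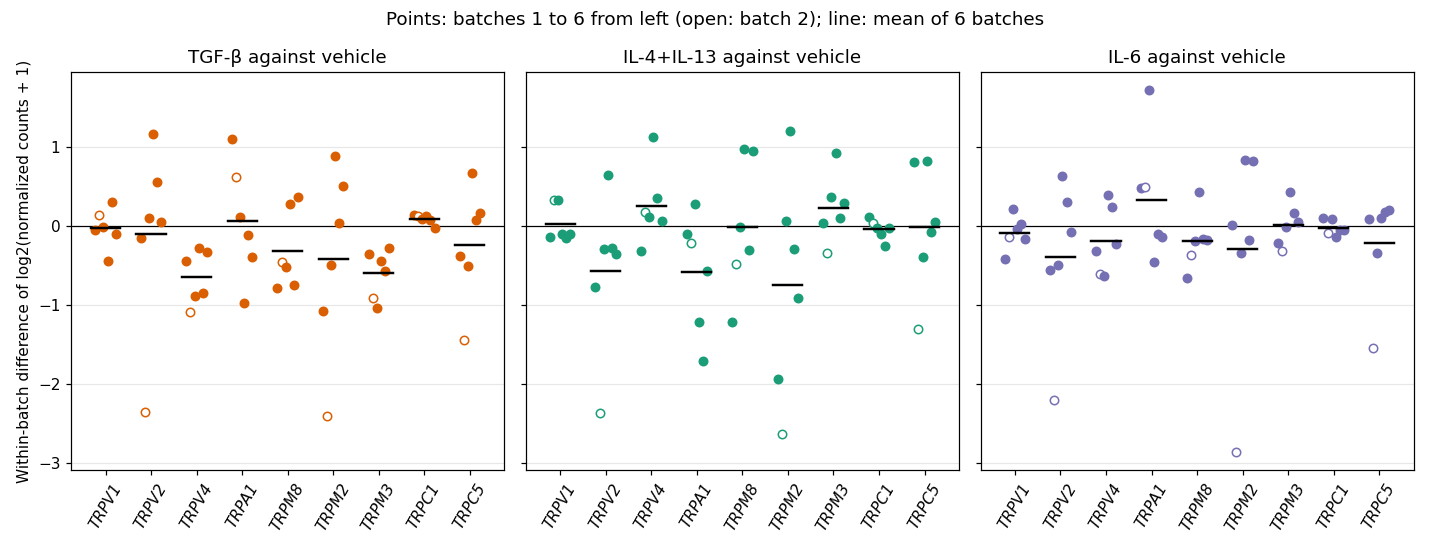
Within-batch difference of the level between each cytokine and vehicle for the 9 genes, with batches 1 to 6 from left to right as points (batch 2 open) and the mean as a line. TRPM3 and TRPV4 are below 0 in all 6 batches under TGF-β, TRPC1 stays within 0.26 of 0 under every cytokine, and the open points of TRPV2, TRPM2 and TRPC5 are the lowest of their genes.

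Some markers of other cell types were also lower under TGF-β. Of 6 pigment cell markers, which melanocytes and pigment epithelium share, TYRP1 (log2 fold change -1.08, edgeR adjusted p = 0.0154) and MITF (-0.61, edgeR adjusted p = 0.0352) fell under TGF-β, and the remaining 4 had log2 fold changes of -1.04 to -0.30 with no call. The TYRP1 call was lost without batch 2, 3 or 5 (edgeR adjusted p up to 0.148) and the MITF call without batch 1, 3, 5 or 6 (up to 0.287). The summed level of the 6 ran from 11.62 to 14.68 (median 12.89) in vehicle libraries and from 11.48 to 14.53 (median 11.99) with TGF-β. MLANA, at 0 to 23 counts, was the only one at or near 0. The sum was weighted toward PMEL and TYR, neither of them called, at medians of 2704 and 2259.5 counts. DCT had 40, 52, 66, 181, 248 and 159 counts in batches 1 to 6 with vehicle. With TGF-β it had 48, 739, 55, 54, 87 and 112. Within batches 1 to 6 the sum differed from vehicle by -0.255, -0.898, -0.948, 0.0265, -0.894 and -0.148 under TGF-β. In batch 4, TRPM3 differed by -0.441. With IL-4+IL-13 the sum differed by -0.426, -0.474, -0.0675, 0.609, -0.163 and -0.189. TRPM3 differed there by 0.04, -0.343, 0.359, 0.925, 0.0991 and 0.293. None of 10 pan-neuronal markers was called. Their summed level had medians of 17.86 with vehicle and 17.67 with TGF-β, which are not paired by batch. In the edgeR fit 5 of the 10 were higher under TGF-β and 5 lower (median log2 fold change -0.01). Without the vehicle library of batch 2, all 10 were higher (median 0.13), still with no call. A list of 8 genes of choroid plexus and pigment epithelium was chosen after values were seen, with SLC4A5 and CLIC6 picked for likeness to TRPM3 or TRPV4. Of these genes, TTR (transthyretin) had 12054 to 811781 counts. It was lower under TGF-β in 6 of 6 batches. The summed level of the 8 had a median of 17.06 with vehicle and 15.97 with TGF-β. In batches 1 to 6 the sum was 19.76, 15.94, 16.27, 15.71, 17.86 and 18.41 with vehicle. With TGF-β it was 19.23, 15.22, 14.42, 14.83, 16.72 and 18.19. The sum was weighted toward TTR, whose median was 90919.5 counts against 10220.5 for CLIC6, the next highest. Not all 8 fell on average: OTX2 had a mean within-batch difference of 0.07. The part of these cells in the TRPM3 difference was not tested.

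Direct comparison of TGF-β with IL-4+IL-13 gave the largest separation of these genes. With IL-4+IL-13, TRPM3 had 13128, 2871, 3935, 4649, 5291 and 11650 counts in batches 1 to 6, above the TGF-β culture of its batch in 6 of 6. The log2 fold change of TGF-β against IL-4+IL-13 was -0.83 (SE 0.13, 95% interval -1.10 to -0.57; edgeR adjusted p = 0.00069). TRPV4 had 1266, 130, 131, 236, 361 and 466 counts with IL-4+IL-13, again above TGF-β in each batch, and its log2 fold change was -0.89 (SE 0.16, 95% interval -1.23 to -0.55; edgeR adjusted p = 0.0034). These were 2 of 9 members, where 1.9% of genes passed as lower and 2.98% in either direction. Both calls held when any 1 batch or the vehicle library of batch 2 was left out (edgeR adjusted p up to 0.0114 for TRPM3 and 0.0305 for TRPV4).

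**Figure D4:**
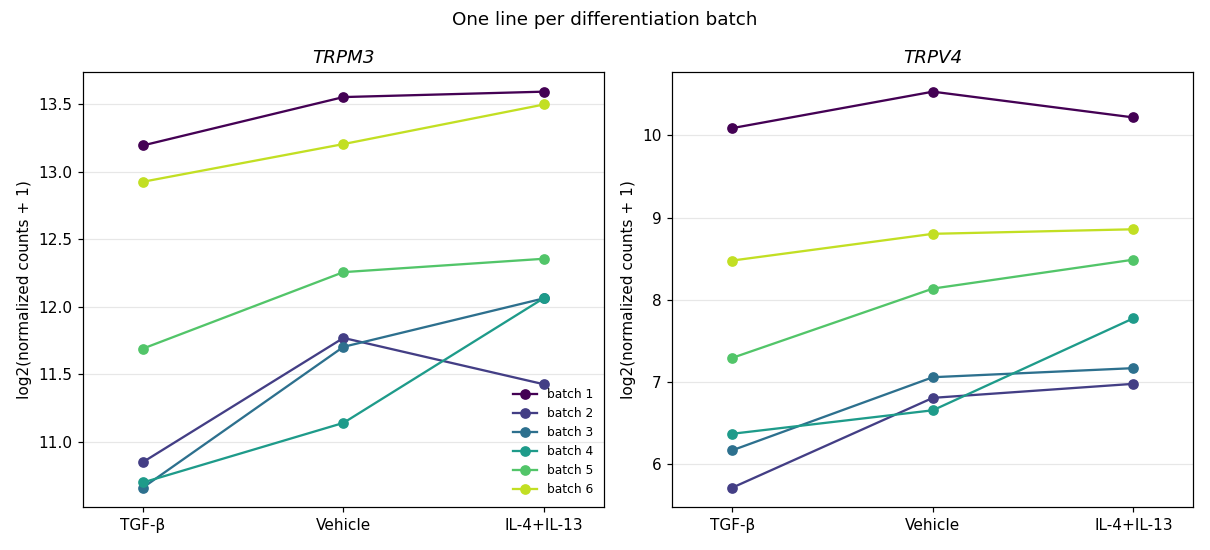
Level of TRPM3 (left) and TRPV4 (right), log2(normalized counts + 1), under TGF-β, vehicle and IL-4+IL-13, with 1 line for each batch of differentiation. Every line is lower at TGF-β than at vehicle and at IL-4+IL-13, while the lines themselves are spread over more than 2 log2 units by batch.

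TRPV2 was higher in the TGF-β culture than in the IL-4+IL-13 culture in 6 of 6 batches, by 0.01 to 0.84 in level, but the test did not call it (log2 fold change 0.49, edgeR adjusted p = 0.599, or 0.0904 without the vehicle library of batch 2). TRPA1 differed by 0.74 (95% interval 0.09 to 1.39; edgeR adjusted p = 0.311). When all treatment terms were tested at once, TRPM3 (edgeR adjusted p = 0.00544) and TRPV4 (edgeR adjusted p = 0.0242) were the members that passed, where 1.81% of genes did. The TRPV4 call was lost without any batch but batch 1 (edgeR adjusted p up to 0.189) and the TRPM3 call without batch 3 (edgeR adjusted p = 0.0691).

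Against vehicle, IL-4+IL-13 changed no member by the edgeR test, and 0.633% of genes passed an adjusted p of 0.05. At an unadjusted p of 0.05, TRPV2 and TRPA1 passed as lower, where 4.68% of genes did. TRPA1 had 20, 13, 14, 15, 21 and 12 counts in batches 1 to 6 with IL-4+IL-13 and 20, 15, 12, 37, 68 and 21 with vehicle. The lower values came mostly from batches 4 and 5, and the groups overlapped. The log2 fold change was -0.70 (95% interval -1.35 to -0.05; edgeR adjusted p = 0.511). That of TRPV2 was also -0.70 (-1.36 to -0.05; edgeR adjusted p = 0.511) and became -0.19 without the vehicle library of batch 2. TRPM3 (0.24, interval -0.03 to 0.50) and TRPV4 (0.25, -0.08 to 0.59) were higher than vehicle in 5 of 6 batches each, without a call. TRPV1 had a log2 fold change of 0.03 (-0.21 to 0.26). TRPM2 had the largest change, -0.77 (edgeR adjusted p = 0.639), which became -0.21 without the vehicle library of batch 2. The median over the 9 members was -0.04, and -0.007 without that library.

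With IL-6 no member was called. edgeR called no gene of the whole table in that comparison (0%), 4.77% passed an unadjusted p of 0.05, no member among them, and DESeq2 put 134 genes under an adjusted p of 0.05. TRPM3 had 9739, 2525, 3374, 3253, 5297 and 10087 counts in batches 1 to 6, on both sides of vehicle, with a log2 fold change of 0.01 (95% interval -0.26 to 0.27). TRPV1 (-0.08, -0.32 to 0.15) and TRPC1 (-0.03, -0.15 to 0.10) were bounded as closely. TRPV2 (-0.53, -1.19 to 0.12) and TRPA1 (0.30, -0.32 to 0.93) were not, and without the vehicle library of batch 2 the TRPV2 value was -0.02.

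Among 18 other TRP genes, all of which could be tested, PKD2 was the only one called with an adjusted p under 0.05 when all 24 libraries were fitted. PKD2 encodes polycystin-2, a TRP channel of cilia and the endoplasmic reticulum. It had 1994 to 3491 counts with IL-4+IL-13 (median 2702.5) and 1336 to 2453 with vehicle (median 1596), higher in 6 of 6 batches (log2 fold change 0.64, SE 0.09; edgeR adjusted p = 0.000815). In the direct comparison it was lower in the TGF-β cultures (-0.64, edgeR adjusted p = 0.000283). Without the vehicle library of batch 2, TRPC4 was also called lower in that comparison (-0.72, edgeR adjusted p = 0.0243), and without batch 2 TRPC4 was called lower (-0.83, edgeR adjusted p = 0.0204) and TRPM6 higher (1.15, edgeR adjusted p = 0.0281). The smallest p values under TGF-β belonged to MCOLN1, a lysosomal channel (-0.25, edgeR adjusted p = 0.289), and TRPM7, a magnesium channel (-0.16, edgeR adjusted p = 0.375). Under IL-6 they belonged to MCOLN1 (-0.21) and MCOLN3 (-0.67), both with an edgeR adjusted p of 0.85.

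Of 22 genes that sensitize TRP channels, scaffold them or act downstream of them, 3 rose with IL-4+IL-13 by the edgeR test, where 0.371% of all genes did, none fell, and none was called under TGF-β or IL-6. DESeq2 called 1 lower with IL-4+IL-13, BDKRB2, a bradykinin receptor gene (-0.89, DESeq2 adjusted p = 0.0362). BDKRB2 had its highest count of all libraries, 329, in the vehicle library of batch 2, against 75 to 89 in the treated libraries of that batch. DESeq2 was not run without that library. ANO1, a calcium-activated chloride channel that amplifies depolarization after TRPV1 opens, had 235, 71, 298, 302, 288 and 169 counts in batches 1 to 6 with IL-4+IL-13 and 32, 102, 105, 91, 122 and 92 with vehicle. It was lower in batch 2 and higher in the other batches, and it rose by 1.33 on the log2 scale (SE 0.30; edgeR adjusted p = 0.0442; higher in 5 of 6 batches). ARRB2, an arrestin that desensitizes receptors, rose by 0.35 (SE 0.07; edgeR adjusted p = 0.0158). The PKD2 call held whichever batch was left out, whereas that of ARRB2 was lost without batch 1, 3 or 5 and that of ANO1 without any batch but batch 2 (edgeR adjusted p up to 0.128 and 0.256).

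Directly compared, TGF-β cultures had less ANO1 (-1.36, edgeR adjusted p = 0.0118) than IL-4+IL-13 cultures, and more F2RL1 (1.69, SE 0.29; edgeR adjusted p = 0.00256), each in 6 of 6 batches. The ANO1 call was lost without batch 1, 3 or 5 (edgeR adjusted p up to 0.101), and the F2RL1 call held throughout. F2RL1 encodes PAR2, the protease receptor that sensitizes TRPV1, TRPV4 and TRPA1. It had 272 to 2361 counts with TGF-β (median 1141) and 152 to 522 with IL-4+IL-13 (median 414.5), and against vehicle its log2 fold change was 0.79 (edgeR adjusted p = 0.437). Without the vehicle library of batch 2 it was called higher than vehicle (1.12, edgeR adjusted p = 0.0390), as it was without batch 2 (1.16, edgeR adjusted p = 0.0384). STIM1 (-0.25, edgeR adjusted p = 0.281), the calcium sensor that couples to TRPC1, had the smallest p of the list under TGF-β against vehicle, and PRKCA (-0.25) and ARRB2 (0.15) had the smallest under IL-6, both at an edgeR adjusted p of 0.85.

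The genes most like each member in level over the 24 libraries, among 13286 entries with a mean count of at least 50, differed between the members. For TRPM3 they were ODAD1 (Pearson r = 0.984, and 0.944 with batch means removed), SLC4A5 (0.981 and 0.952) and BMP4 (0.980 and 0.889). For TRPV4 they were CABLES1 (0.980 and 0.885), CLIC6 (0.979 and 0.892) and STON1 (0.978 and 0.735). For TRPC5 they were DIRAS2 (0.984 and 0.912), GABBR2 (0.984 and 0.903) and LGI3 (0.984 and 0.892), and for TRPV2 they were PTPRH (0.990 and 0.955), TTC39A (0.985 and 0.952) and SLC35G2 (0.984 and 0.931). In these 4 members the correlations stayed at 0.735 or above once batch means were removed. The correlations here and below include the vehicle library of batch 2 and were not computed without it. The SD of level within a batch was largest in batch 2 for TRPV2 (1.16, against 0.18 to 0.48 elsewhere). The same held for TRPC5 (0.72, against 0.09 to 0.49).

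TRPM8 was different. NGFR (0.949), PCBP3 (0.944) and DDN (0.942) were closest over all libraries, and the correlations with batch means removed were -0.06, 0.06 and 0.01. For TRPM2 the closest were PRKCD (0.904 and 0.788), CYP2S1 (0.902 and 0.801) and PPM1J (0.902 and 0.816). The flat genes had weaker matches: FAM193B (0.824), LIME1 (0.787) and UCKL1 (0.778) for TRPV1, TNRC6B (0.854), ZC3H8 (0.830) and RAPGEF2 (0.824) for TRPC1, and EHBP1L1 (0.736), SMTN (0.726) and TSSK3 (0.714) for the thinly counted TRPA1.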

How the data were processed

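Poly-A RNA of 24 cultures was sequenced. The authors deposited unnormalized counts of reads for each gene. Their sequencing provider trimmed reads (Trimmomatic 0.30) and mapped them to GRCh38.p14. Which aligner and counter were used, and whether strand was read, is not given in the sources used here. Assembled loci named NewGene (13161 entries) held 1.97% of counts and stayed in the fits. No replicate pair of a group agreed within sampling noise.

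Counts were tested with edgeR 4.0.16 (R 4.3.3; TMM, robust quasi-likelihood F test, all 24 libraries, treatment and batch as terms) on the 29377 genes whose counts summed to 10 or more, with Benjamini-Hochberg adjustment over all of them. Calls required an adjusted p under 0.05, and where stated a log2 fold change beyond 1. Standard errors and intervals were derived from the fold change and F. DESeq2 1.42.0 was an alternative. The procedure was also run on data simulated from its own fit, with larger changes than any member showed and no outlying library. That run therefore cannot speak to the detection of differences of the size seen here. The labels number the libraries by shared batch, which pairs them: deviations of libraries of 1 batch correlated with a median of 0.564 over 36 pairs. Levels use DESeq2 size factors, log2 with 1 added. Correlations describe the libraries and carry no test.

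Text names all 9 members, genes of the other TRP and partner lists past an adjusted p of 0.05 (otherwise the 2 smallest p per list and comparison), and the 3 entries most like each member. The members and lists were chosen with earlier results of these data known. Some genes that the rule names are not reported here; they stay in every test and count.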

Additional observations from a re-analysis of the deposited data

Results flagged for a closer look

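TRPM3 and TRPV4 responded differently to TGF-β and to IL-4+IL-13, as the direct test of the difference showed. The effect of TGF-β minus that of IL-4+IL-13 was -0.83 on the log2 scale for TRPM3 (edgeR adjusted p = 0.00069) and -0.89 for TRPV4 (edgeR adjusted p = 0.0034), with the same sign in 6 of 6 batches for both. Both effects use the same vehicle libraries, which cancel in the direct contrast. In a search for a library far from the other 5 of its treatment, none of 36 groups of 6 levels (9 genes in 4 treatments) exceeded Dixon's critical value for 6 samples, where chance exceeds it in about 1 of 20 groups. The vehicle library of batch 2 did not exceed it either, since other batches reach the levels it has.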

How the results depend on the processing

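The direction of the TRPM3 and TRPV4 differences of TGF-β from vehicle and from IL-4+IL-13 was kept under every alternative run, while the TRPM3 call against vehicle was lost in most. The cause of these changes was not tested. The count of all genes called went from 42 to 6 when the IL-6 libraries were left out of the fit and to 233 with DESeq2 under TGF-β, from 109 to 72 and 294 under IL-4+IL-13, from 0 to 122 with DESeq2 under IL-6, and from 347 to 624 with DESeq2 for TGF-β against IL-4+IL-13. The count of members at an adjusted p under 0.05 under TGF-β went from 1 to 0 with RLE normalization (TRPM3 adjusted p = 0.0545), with no filter on low counts (0.0509) and without the IL-6 libraries (0.189), and to 2 with DESeq2. Without the replicate block, which removes the pairing by batch, genes called fell to 0, 13 and 49 (TGF-β, IL-4+IL-13, and the direct comparison), 0 members passed in any comparison, and 4 member values reversed: TRPV2 under TGF-β to 0.10, TRPV4 under IL-4+IL-13 to -0.027, TRPM3 under IL-6 to -0.033 and TRPM2 in the direct comparison to -0.045. When a batch or the batch 2 vehicle library was left out, genes called ran from 1 to 42, 60 to 122, 0 to 0 and 196 to 444 in the same order of comparisons (with IL-6 before the direct one), and members passing were 0, 0, 0 and 2 in each case. The joint treatment test ran from 188 to 888 genes (532 with all libraries) and 0 to 2 members, and the batch test from 12602 to 17840 genes (16696) and 6 to 8 members. Of 36 pairs of member and comparison, 14 changed sign in at least 1 such setting, none of them called. Their log2 fold changes ran under TGF-β from -0.086 to 0.061 (TRPV1), -0.44 to 0.33 (TRPV2), -0.20 to 0.27 (TRPA1) and -0.46 to 0.022 (TRPC5), under IL-4+IL-13 from -0.041 to 0.066 (TRPV1), -0.18 to 0.21 (TRPM8), -0.071 to 0.0012 (TRPC1) and -0.24 to 0.23 (TRPC5), under IL-6 from -0.62 to 0.19 (TRPM2), -0.065 to 0.088 (TRPM3), -0.051 to 0.0029 (TRPC1) and -0.37 to 0.029 (TRPC5), and in the direct comparison from -0.15 to 0.0096 (TRPV1) and -0.032 to 0.39 (TRPM2). Vehicle levels stayed within 1 SD in 63 of 63 settings. Summing rows of the same symbol gave no other value, as each member has 1 row. Counts of 6 to 72 for TRPM2 and 12 to 68 for TRPA1 limit what these libraries can show for either gene.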

Other observations

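SLC4A5 and CLIC6, found above to resemble TRPM3 and TRPV4, are known from choroid plexus and pigment epithelium, 2 tissues that also express both channels. A list of 8 genes of these epithelia was therefore read after their values were seen, and it has no test. TTR, the transthyretin gene, had 12054 to 811781 counts (median 90919.5), with r = 0.961 to TRPM3 over 24 libraries and 0.921 once batch means were removed. KCNJ13, a potassium channel gene (45 to 2001 counts), had 0.945 and 0.835, and FOLR1, the folate receptor gene (132 to 3742 counts), had 0.950 and 0.909. SLC4A5 and CLIC6 had 0.981 and 0.942 over all libraries and 0.952 and 0.897 with batch means removed. Both were picked for their likeness to TRPM3 or TRPV4 in these same libraries. Their high values, and a like course under the treatments, were therefore built in. OTX2 had 0.846 and PRLR 0.745 over all libraries, and 0.326 and 0.289 with batch means removed. AQP1 had 0.006 over all libraries and 0.508 with batch means removed. None of the 8 was at 0 in all libraries.

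The summed level of these genes was 19.76 in the vehicle library of batch 1, 18.41 in batch 6 and 15.71 to 17.86 in the other batches. This sum was weighted toward TTR, at a median of 90919.5 counts against 10220.5 for CLIC6, the next highest. It ran from 15.71 to 19.76 (median 17.06) with vehicle, from 14.42 to 19.23 (median 15.97) with TGF-β, from 15.73 to 19.28 (median 17.29) with IL-4+IL-13 and from 15.75 to 19.38 (median 17.18) with IL-6. Between TGF-β and vehicle within batches, TTR differed by -1.04 ± 0.75 (SD, n = 6) and was lower in 6 of 6 batches, as were KCNJ13 (-0.93 ± 1.10), FOLR1 (-0.79 ± 0.54), PRLR (-0.50 ± 0.28) and CLIC6 (-0.42 ± 0.44). SLC4A5 (-1.03 ± 0.71), AQP1 (-1.03 ± 1.05) and OTX2 (0.07 ± 0.35) were lower in 5 of 6. Their part in the TRPM3 and TRPV4 differences was not tested.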
